A study of Homo sapiens with 6 samples.

Results

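Dense hubs of constitutive accessible chromatin were examined in A549, a human lung adenocarcinoma cell line. DNase-seq, which releases and sequences DNA that the nuclease DNase I can cut, had been performed on cells given 100 nM dexamethasone for 1 h or 0.02% ethanol, the vehicle, for 1 h, with 3 libraries per treatment numbered 1 to 3. The deposited data are 1 list of peaks per library in hg19 coordinates. Overlapping peaks (by at least 1 bp) from the 6 lists were joined, which gave 81216 regions. A library called a region when its list had a peak there. Each chromosome was cut into bins of 100 kb from position 0, and regions were placed by their centre. A hub is a bin with at least 8 regions called in all 6 libraries. Of 19296 bins that held any region, 577 (2.99%) were hubs, and the members described here are the 7850 regions in them, 9.67% of all regions. The lists held 58281 to 61344 peaks. They give no read counts, so sequencing depth is unknown, and a library without a peak at a place may still hold signal there below the threshold of the caller. Whether libraries stem from separate cultures is not given in the labels, and p-values over libraries measure only the spread between them, which may be technical.

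A DNase hypersensitive region is a short stretch of DNA where nucleosomes are displaced, as at active promoters, enhancers and insulators. Many such sites are open whatever the treatment of the cells and tend to gather where active genes are dense. Dexamethasone is a synthetic ligand of the glucocorticoid receptor, a transcription factor that moves to the nucleus on binding it and occupies DNA largely at chromatin that is already accessible, while opening other sites itself. A hub therefore offers a setting of open chromatin in which sites seen in 1 treatment alone can be looked for. Members are named by position, since annotation of the hg19 build was not used here.

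The calls in all 6 libraries chose the hubs, so the make-up of hubs in such regions is a description. Hubs held 5450 regions called in all 6 libraries, 13.6% of the 39934 in the series, and 2400 variable regions, meaning regions called in 1 to 5 libraries. A hub held 8 to 17 regions of the first kind with a median of 9. In 225 hubs the number was exactly 8, at the limit of the rule, and 70 hubs had 12 or more. Variable regions numbered 0 to 15 per hub with a median of 4, and 12 hubs had none. Together the regions of a hub spanned 3.62 to 11.1 kb of its 100 kb (median 6.24 kb). Neighbouring regions called in all 6 libraries within a hub were a median of 7.72 kb apart, with the closest 10% of steps at 1.01 kb or less and the widest 10% at 20.4 kb or more.

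Hubs were unevenly spread over the chromosomes. Chromosome 19 carried 109 hubs, 21.7% of its 502 occupied bins, and chromosome 17 carried 85, 11.7% of 724. These chromosomes, known for their high gene density, held 33.6% of all hubs and 6.35% of all occupied bins. Chromosome 16 followed with 35 hubs (5.80% of its bins). Chromosome 4 had a single hub among 916 bins, and chromosomes 13, 18, 21 and Y had none. Of the 577 hubs, 317 had no neighbouring hub and 260 lay in 105 runs of at least 2 adjoining bins. The longest run was 9 hubs in a row on chromosome 19, from 48800001 to 49700000, with 105 regions called in all 6 libraries among 156 regions.

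**Figure D1:**
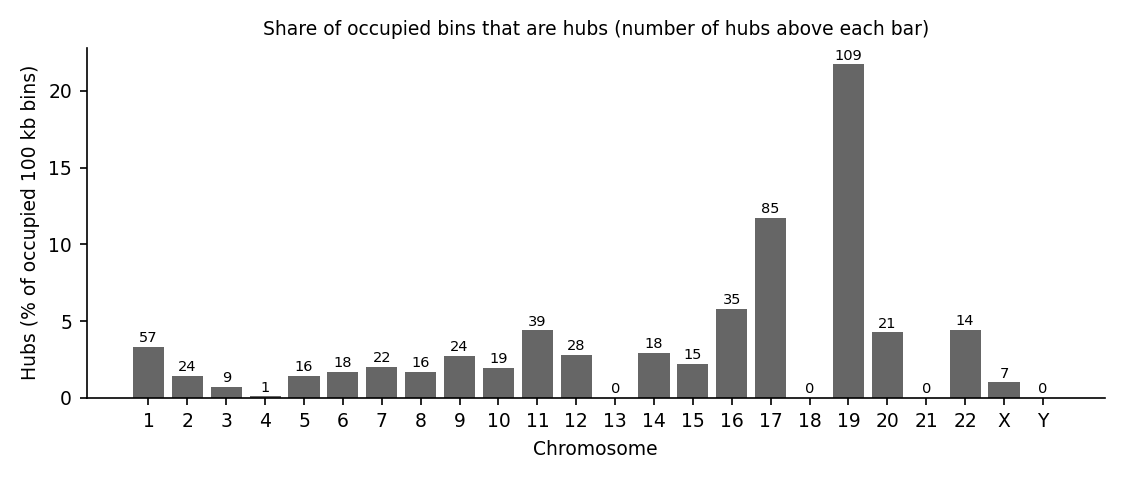
Bars give hubs as a percentage of the occupied 100 kb bins of each chromosome, with the number of hubs above each bar. Chromosomes 19 (21.7%) and 17 (11.7%) stand above all others, and chromosomes 13, 18, 21 and Y have no hub.

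The 12 hubs with the most regions called in all 6 libraries lay on chromosomes 9, 11, 12, 16, 17, 19 and 20 and held 14 to 17 of them. The densest was on chromosome 11 at 64000001 to 64100000. It held 21 regions, 17 of them called in all 6 libraries. The dexamethasone libraries called 19, 18 and 17 of its regions (replicates 1 to 3) and the ethanol libraries 18, 18 and 19, so the treatments overlapped. The hub at 45900001 to 46000000 on chromosome 19 also held 17, with 1 variable region among its 18 regions. Its dexamethasone libraries called 17 each and the ethanol libraries 18, 18 and 17. At 46100001 to 46200000 on the same chromosome, 16 of 24 regions were called in all 6 libraries, and the libraries called 19, 20 and 17 regions with dexamethasone and 19, 20 and 19 with ethanol. Across the 12 hubs 3 treatment-only regions were found. The hubs on chromosome 16 (700001 to 800000) and chromosome 17 (8000001 to 8100000) each had 1 dexamethasone-only region, and the hub on chromosome 19 (47200001 to 47300000) had 1 ethanol-only region. The 70 hubs with 12 or more, which include these, held 4 and 3 among 320 variable regions (1.25% and 0.938%). The exact 95% binomial intervals, 0.342 to 3.17% and 0.194 to 2.72%, include the shares over all variable regions, 2.17% and 1.3%.

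Constitutive regions in hubs were ranked higher by significance than constitutive regions elsewhere but had lower fold enrichment. Peak strength was read within each list as the percentile of −log10 q, the authors' significance value, and as the authors' fold enrichment over background in that library. Both are the authors' own values for peaks, and a region with several peaks in a list was given the highest of each. Inside and outside hubs they are compared only within the same list. The median percentile of regions called in all 6 libraries was 71.3, 70.1 and 68.8 in hubs in the dexamethasone libraries and 70.9, 71.2 and 71.0 in the ethanol libraries. Outside hubs it was 64.3, 66.1 and 64.8 with dexamethasone and 64.4, 65.9 and 66.4 with ethanol. It was thus higher in hubs in every library, by 5.24 points on average (70.5 ± 0.95 against 65.3 ± 0.92, SD, n = 6 libraries, exact two-sided sign permutation p = 0.03125, the smallest that 6 libraries allow). The libraries share the same regions, so this p covers the spread between libraries and not that between regions. Calls rest on the same q values, so strength is not fully independent of the rule that chose the hubs. The percentile did not rise at the limit of that rule. In bins with 8 regions called in all 6 libraries, the median was 67.6, 68.4 and 66.3 with dexamethasone and 68.5, 69.2 and 68.9 with ethanol. Bins with 7, just outside the limit, had 69.7, 69.9 and 68.4 with dexamethasone and 68.9, 69.9 and 70.0 with ethanol.

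The fold enrichment moved the other way. Its median in hubs was 7.67, 7.78 and 7.35 in the dexamethasone libraries and 7.52, 7.74 and 7.72 in the ethanol libraries. Outside hubs it was 8.73, 9.01 and 8.37 with dexamethasone and 8.55, 8.88 and 8.77 with ethanol. Hubs were lower in every library (7.63 ± 0.16 against 8.72 ± 0.23, SD, n = 6, exact sign permutation p = 0.03125). Width was taken per region as the summed width of the peaks that a library had in it. It was slightly larger in hubs, with medians of 371 to 397 bp against 361 to 382 bp outside (387.7 ± 9.2 against 372.2 ± 7.6 bp, SD, n = 6, exact sign permutation p = 0.03125). Within bands of equal percentile the fold was again lower in hubs in each library. Above percentile 75 of each list the median fold was 10.4 to 10.9 in hubs over the 6 libraries and 11.96 to 12.99 outside. Up to percentile 25 it was 4.05 to 4.26 in hubs and 4.90 to 5.21 outside. The width did not keep its direction: above percentile 75 it was smaller in hubs in all 6 libraries, with medians of 516 to 556 bp against 541 to 619 bp outside. At the limit of the rule it was also smaller in bins with 8 than in bins with 7 in each library, at 356 to 382 bp against 371.5 to 398 bp. The fold was lower there in each library, at 7.54 to 8.04 against 7.79 to 8.33.

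The lower fold was seen chromosome by chromosome, and the higher percentile was not always. On 19 of the 20 chromosomes with a hub, the median fold was lower in hubs than elsewhere on that chromosome in all 6 libraries. Chromosome X was the exception, with differences of −0.053 to 0.53 between the hub median and the rest. The percentile was higher in hubs in all 6 libraries on 13 of 20 chromosomes and lower in all 6 on chromosomes 6, 19 and 22. On chromosome 19, which has the most hubs, hub regions differed from its other constitutive regions by −3.83 to −2.38 points. On chromosome 6 the difference was −10.6 to −4.54 points. The summed peak width was larger in hubs in all 6 libraries on 11 chromosomes and smaller in all 6 on chromosomes 4, 6, 15 and 19. The differences in median width were −42 to −23.5 bp on chromosome 19. Within the chromosome richest in hubs the percentile thus ran the other way from the whole genome, while the fold was again lower in hubs.

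**Figure D2:**
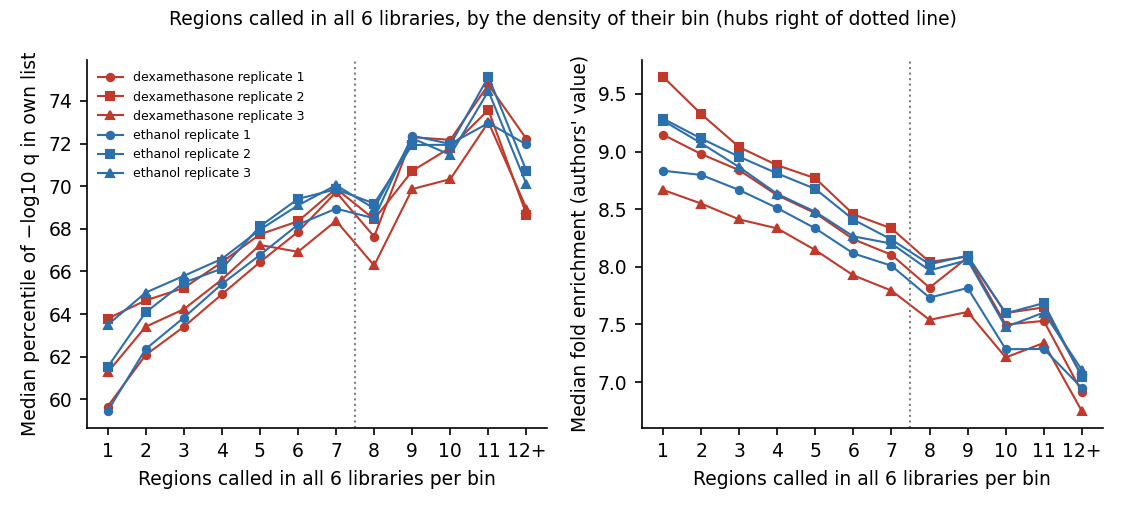
Each line is 1 library (red dexamethasone, blue ethanol), plotted against the number of regions called in all 6 libraries in the 100 kb bin. The left panel gives the median percentile of −log10 q in the library's own list and the right panel gives the median fold enrichment of those regions. In dexamethasone replicate 1, for example, the fold fell from 9.15 in bins with 1 such region to 6.91 in bins with 12 or more, while the percentile was 59.7 and 72.2.

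The share of each list that fell in hubs is largely set by the rule, since 5450 of the 6250 to 6640 hub regions that a library called are those required in all 6. It is given as a description. Hubs took 11.8%, 11.3% and 11.2% of the peaks of dexamethasone libraries 1 to 3 and 11.5%, 11.3% and 10.96% of those of ethanol libraries 1 to 3. The groups overlapped, at 11.4 ± 0.33% and 11.2 ± 0.27% (SD, n = 3 each).

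Which libraries called the variable regions was not used by the rule. Dexamethasone replicates 1 to 3 called 1190, 1172 and 800 of the 2400, which is 49.6%, 48.8% and 33.3%. Ethanol replicates 1 to 3 called 979, 1107 and 1019, or 40.8%, 46.1% and 42.5%. The dexamethasone libraries held both the highest values and the lowest, and the ethanol libraries lay between them. The mean was 43.9 ± 9.2% with dexamethasone and 43.1 ± 2.7% with ethanol (SD, n = 3 per treatment; p = 1 by exact two-sided permutation, where 3 libraries against 3 cannot go below 0.1). Without dexamethasone replicate 3 the difference of 0.79 points became 6.95 points (exact permutation p = 0.2), and without dexamethasone replicate 1 it was −2.31 points (exact permutation p = 0.8), so single libraries decided its sign. It was also negative without dexamethasone replicate 2 (−1.52 points) and without ethanol replicate 1 (−0.37 points).

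Relative to their rates outside hubs, both libraries numbered 3 called fewer variable regions in hubs. Outside hubs, variable regions were called at 38.6%, 44.9% and 39.6% with dexamethasone and at 38.5%, 44.1% and 46.2% with ethanol. The rate in hubs minus that outside was 11.03, 3.91 and −6.25 points for dexamethasone replicates 1 to 3 and 2.30, 2.04 and −3.78 points for ethanol replicates 1 to 3. It was negative in both libraries numbered 3 and positive in the other 4. The treatments overlapped in this difference as well (2.90 ± 8.68 and 0.18 ± 3.44 points, SD, n = 3 each, exact permutation p = 0.7). Their difference of 2.71 points was 8.31 points without dexamethasone replicate 3 (exact permutation p = 0.1, the smallest that 2 libraries against 3 allow) and −1.60 points without dexamethasone replicate 1. It was 0.86 points without ethanol replicate 3. Within a number, the hub call rate with dexamethasone was 8.79 points higher for number 1, 2.71 points higher for number 2 and 9.13 points lower for number 3. The labels do not say what a number stands for.

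**Figure D3:**
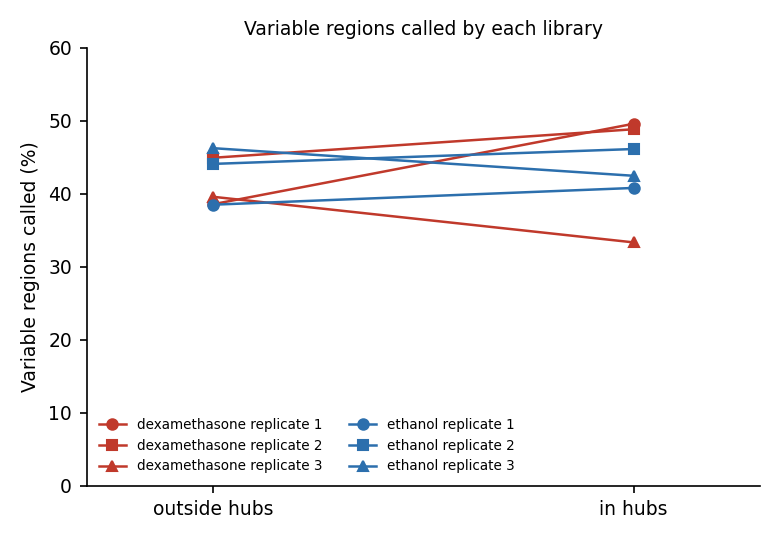
The percentage of variable regions (called in 1 to 5 libraries) that each library called, outside hubs and in hubs, with 1 line per library, red for dexamethasone and blue for ethanol, and circles, squares and triangles for replicates 1, 2 and 3. The lines of both libraries numbered 3 fall towards hubs, to 33.3% and 42.5%, and the other 4 rise.

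Some other values moved with the library number, and some did so in the dexamethasone libraries alone. Chromosome 19 held 5.44%, 5.35% and 4.94% of the peaks of dexamethasone libraries 1 to 3 and 5.38%, 5.27% and 5.005% of those of ethanol libraries 1 to 3, lowest for number 3 in both treatments. On chromosomes 17 and 19, dexamethasone replicate 3 called 29.8% of 847 variable hub regions and 32.2% of 2968 variable regions outside hubs. On all other chromosomes it called 35.3% of 1553 in hubs and 40.2% of 35914 outside. Ethanol replicate 3 called 40.5% in hubs and 39.4% outside on chromosomes 17 and 19, and 43.5% in hubs and 46.8% outside on the others. On chromosomes 17 and 19 its rate was thus not lower in hubs, unlike that of dexamethasone replicate 3. The part of these values in the result was not tested. In regions missing from a single library, that library was dexamethasone replicate 3 for 152 of 418 in hubs (36.4%) and for 25.1% of the 6128 outside hubs. Of 868 hub regions called in a single library, 201 (23.2%) were called in dexamethasone replicate 1 and 97 (11.2%) in dexamethasone replicate 3. Ethanol replicates 1 and 3 differed less in hubs. They were the missing library for 60 (14.4%) and 61 (14.6%), beside 17.7% and 11.4% outside hubs. They were the single calling library for 125 (14.4%) and 144 (16.6%), beside 15.1% and 19.6% outside.

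Hubs also held regions called in 1 treatment alone, 78 with dexamethasone and 29 with ethanol. A dexamethasone-only region was one with calls from every dexamethasone library and from none given ethanol; ethanol-only regions had the opposite pattern. Those in hubs were 8.70% of the 897 dexamethasone-only regions and 5.39% of the 538 ethanol-only regions. As a share of all 7850 hub regions the former were 0.994%, beside 1.1% over all merged regions, and the latter 0.369%, beside 0.662%. By the rule hubs are rich in regions called everywhere, which can belong to neither kind, so the variable regions are the fitting base. Of the 2400 variable hub regions, 3.25% were dexamethasone-only (exact 95% binomial interval 2.58 to 4.04%), beside 2.17% over all variable regions and 2.11% outside hubs. For ethanol-only regions the share was 1.21% (0.811 to 1.73%), beside 1.3% over all variable regions and 1.31% outside. The intervals cover counting over regions, which are not independent, and hold no spread between libraries. A test of the difference between hubs and other bins was not made. The dexamethasone-only share in hubs exceeded that outside by 1.14 points, and by 2.14 points without dexamethasone replicate 3, 0.71 points without dexamethasone replicate 1 and 2.72 points without both libraries numbered 3. The ethanol-only difference was −0.10 points and took either sign when single libraries were left out (−0.85 points without ethanol replicate 1, 0.44 points without dexamethasone replicate 1 and 0.32 points without dexamethasone replicate 2).

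The dexamethasone-only share did not rise steadily with density. It was 1.33% of variable regions in bins with no region called in all 6 libraries, 2.35% in bins with 4 and 3.39% in bins with 6. Just outside the limit, the 328 bins with 7 held 48 dexamethasone-only regions among 1299 variable ones (3.70%) and 15 ethanol-only regions (1.15%). Just inside, the 225 bins with 8 held 31 among 875 (3.54%) and 11 (1.26%). The share was 4.61% in bins with 9 and 3.44% in bins with 10. It was 1.24% in bins with 11 (3 of 241) and 1.25% in bins with 12 or more (4 of 320). With hubs defined by at least 10 regions, the share in hubs was 2.13%, beside 2.17% outside, with the low shares in bins with 11 and with 12 or more. Hubs with 8 to 11 together had 74 among 2080 variable regions (3.56%). The interval for bins with 12 or more, 0.342 to 3.17%, includes the share outside hubs. With bins shifted by 50 kb it was 2.63% in hubs against 2.15% outside.

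**Figure D4:**
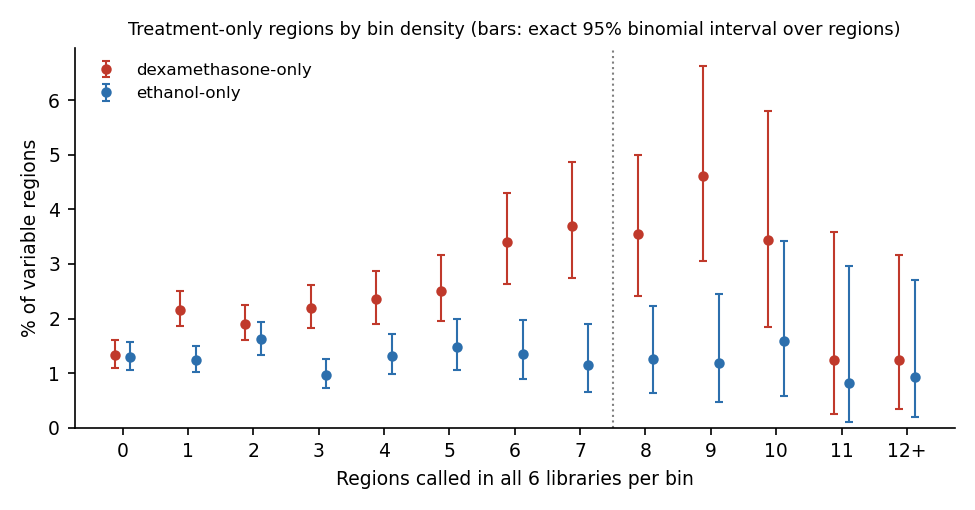
Points give dexamethasone-only (red) and ethanol-only (blue) regions as a percentage of the variable regions in bins with a given number of regions called in all 6 libraries, with exact 95% binomial intervals over regions and the hub limit as a dotted line. The dexamethasone-only share is 4.61% in bins with 9 and 1.25% in bins with 12 or more, and the ethanol-only share stays between 0.83% and 1.62%.

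By hub, 66 of the 577 held at least 1 dexamethasone-only region (11.4%, beside 4.34% of all bins with a region), 28 held at least 1 ethanol-only region (4.85%, beside 2.74%), and 486 held neither. Hubs have more variable regions than other bins, so a higher share of bins follows in part from their size. Among bins with a variable region the backgrounds were 5.03% and 3.17%. Both kinds occurred together in 3 of the 577 hubs, beside 37 of all 19296 bins with a region (0.192%). No background of bins with as many variable regions is given for this. Most of the 66 hubs (55) held 1 dexamethasone-only region, 10 held 2 and 1 held 3. A single hub held 2 ethanol-only regions. Over all hubs there were 78 dexamethasone-only and 29 ethanol-only regions among 2400 variable ones. Chromosome 17 had 13 and 3 among 356, chromosome 19 had 10 and 8 among 491, and chromosome 10 had 7 and 1 among 78. Chromosomes 15 and 22, with 15 and 14 hubs and 57 and 59 variable hub regions, had neither kind.

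The hub with 3 dexamethasone-only regions lay on chromosome 10 at 99400001 to 99500000, where 9 of 16 regions were called in all 6 libraries. Its dexamethasone libraries called 13, 14 and 14 regions and its ethanol libraries 12, 12 and 11. A hub named for its treatment-only regions gains a call from each of them in every library of that treatment, so these numbers are a description. Without the 3 regions they were 10, 11 and 11 with dexamethasone and 12, 12 and 11 with ethanol. The 3 sites lay within 10 kb of each other, at 99474575 to 99474872, 99478394 to 99478863 and 99484075 to 99484428. The middle one had the highest percentile, with folds of 7.07, 4.17 and 5.23 in dexamethasone replicates 1 to 3 and percentiles of 70.4, 26.4 and 48.7, so its rank differed widely between libraries. The constitutive region next to it, at 99473047 to 99474489, had folds of 5.82, 6.59 and 6.06 in the dexamethasone lists and 7.25, 7.92 and 8.07 in the ethanol lists. The first of the 3 sites began within 100 bp of the end of that region. Its folds were 2.62, 3.51 and 2.58 and its percentiles 1.25, 21.8 and 0.263, rank 75 of the 78 dexamethasone-only hub regions. The third site had folds of 7.81, 5.16 and 5.05 and percentiles of 45.2, 11.2 and 12.8.

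On chromosome 17, the hub at 7100001 to 7200000 had the largest difference in the mean number of called regions among the hubs with several treatment-only regions. Its dexamethasone libraries called 20, 19 and 17 of 21 regions and its ethanol libraries 14, 15 and 13, with 13 called in all 6. Without its 2 dexamethasone-only regions the numbers were 18, 17 and 15 against 14, 15 and 13, which overlapped at 15. Only 2 of its 8 variable regions were dexamethasone-only by the strict rule, at 7167827 to 7168152 (folds of 3.77, 3.501 and 3.97) and at 7170050 to 7170400 (4.95, 5.22 and 3.95). The hub at 46900001 to 47000000 on the same chromosome had 2 dexamethasone-only sites as its only variable regions. Each dexamethasone library called 10 of its 10 regions and each ethanol library 8. The site at 46918795 to 46919152 had folds of 10.9, 6.49 and 6.21, and the site at 46949442 to 46949730 had 6.03, 6.14 and 5.45. An ethanol peak lay 0.069 kb from the latter.

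The other hubs with 2 dexamethasone-only regions lay on chromosomes 1, 2, 5, 10, 17, 19 and 20. At 8200001 to 8300000 on chromosome 1, the sites were at 8215545 to 8215965 (folds of 6.75, 6.93 and 5.80) and 8249952 to 8250396 (8.17, 8.18 and 6.67). The libraries there called 14, 14 and 13 regions with dexamethasone and 11, 10 and 10 with ethanol. At 85900001 to 86000000 on chromosome 2 they called 14, 13 and 13 against 10, 10 and 9. At 49000001 to 49100000 on chromosome 20 they called 17, 12 and 13 against 11, 9 and 10. At 148800001 to 148900000 on chromosome 5 they called 12, 11 and 10 against 9, 9 and 8. Without the 2 dexamethasone-only regions for which each was named, the treatments overlapped in the hubs on chromosomes 1 (12, 12 and 11 against 11, 10 and 10), 20 (15, 10 and 11 against 11, 9 and 10) and 5 (10, 9 and 8 against 9, 9 and 8). In the hub on chromosome 2 they did not, at 12, 11 and 11 against 10, 10 and 9. No share over all bins is given for counts without treatment-only regions. With all regions counted, every dexamethasone library lay above every ethanol library in 2.63% of 7705 bins. In that hub on chromosome 2, the dexamethasone-only site at 85935856 to 85936119 had percentiles of 2.38, 7.43 and 9.86. The hub at 3300001 to 3400000 on chromosome 19 had 15, 13 and 13 against 12, 10 and 10, and without its 2 regions 13, 11 and 11, which overlapped. In the hub at 80900001 to 81000000 on chromosome 10 (10, 11 and 11 against 8, 9 and 10), 1 library of each treatment called 10. The hubs at 172300001 to 172400000 on chromosome 5 (13, 12 and 12 against 10, 12 and 10) and 1600001 to 1700000 on chromosome 17 (14 each against 11, 14 and 12) overlapped in 1 ethanol library.

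Both kinds shared a hub in 3 places. On chromosome 14 at 103500001 to 103600000, 1 dexamethasone-only region (103537932 to 103538222, folds of 2.86, 3.06 and 3.11) lay with 2 ethanol-only regions. The latter were at 103565498 to 103566004 (folds of 4.11, 3.99 and 4.25 in ethanol replicates 1 to 3) and 103577663 to 103578096 (3.09, 3.16 and 2.63). This hub had 12 variable regions among 21, and its libraries called 15, 16 and 13 regions with dexamethasone and 15, 16 and 17 with ethanol. On chromosome 10 at 112100001 to 112200000, an ethanol-only region at 112132546 to 112132823 and a dexamethasone-only region at 112188978 to 112189398 lay 32.7 and 89.2 kb from the start of the hub, which had 15 regions. On chromosome X at 118600001 to 118700000, the dexamethasone-only region at 118628344 to 118628795 had folds of 10, 7.10 and 6.65 and the ethanol-only region at 118675190 to 118675477 had 6.05, 7.22 and 5.91.

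**Figure D5:**
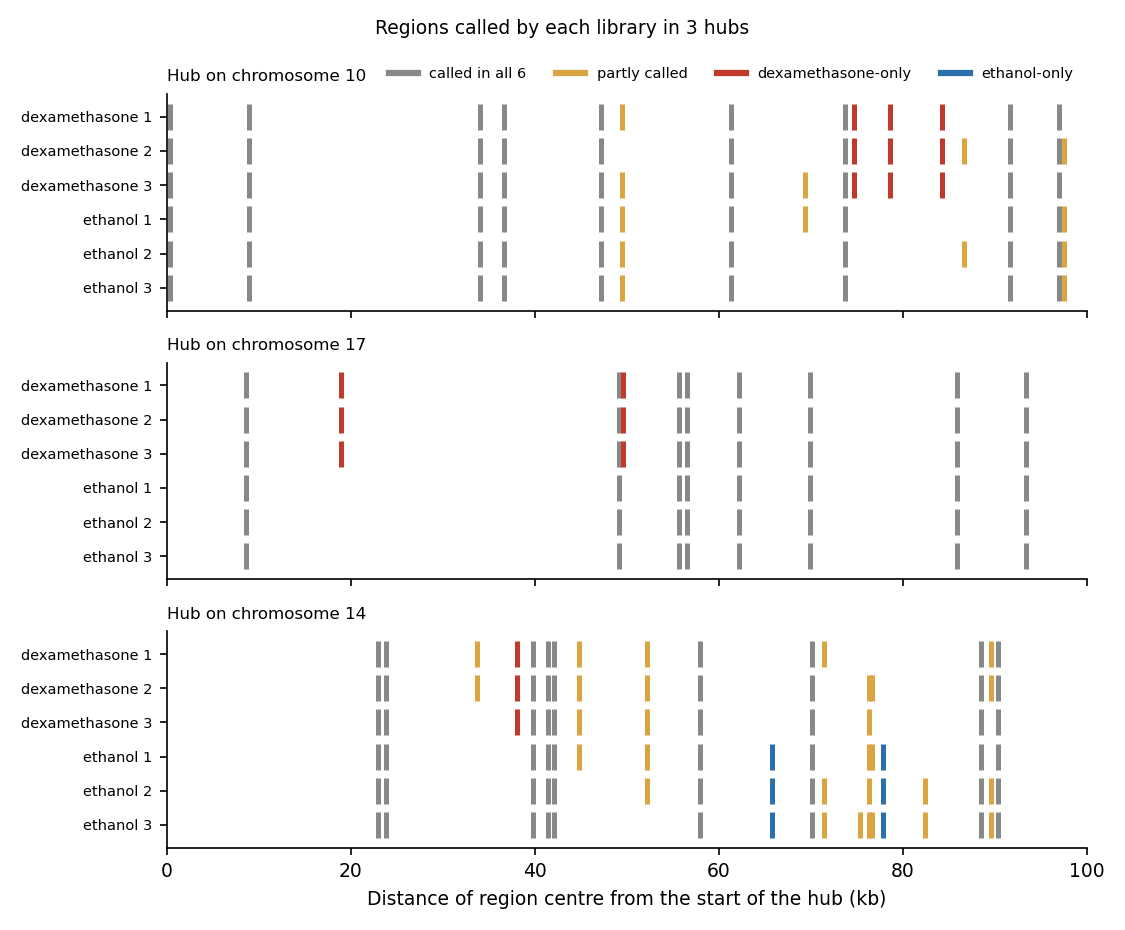
Each panel is a hub on chromosome 10, 17 or 14, with 1 row per library, and each mark is the centre of a region called in that library by its distance from the hub start in kb. Grey marks run through all 6 rows, red marks (3, 2 and 1 in the panels) are in the dexamethasone rows alone, blue marks (2, in the hub on chromosome 14) are in the ethanol rows alone, and yellow marks are the other variable regions.

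Treatment-only sites in hubs mostly ranked low within their lists, as variable regions in general did. In dexamethasone replicates 1 to 3 the median percentile of dexamethasone-only hub regions was 37.2, 26.6 and 27.8. For all variable hub regions that these libraries called it was lower, at 24.4, 21.8 and 21.4. In ethanol replicates 1 to 3, ethanol-only hub regions had 21.5, 26.7 and 18.8, beside 23.7, 22.3 and 22.5 for the variable ones. The 78 dexamethasone-only regions had mean percentiles of 3.78 to 75.2 with a median of 29.1, and 7 lay above 50. Outside hubs the median was 24.5 and 83 of 819 lay above 50. The 29 ethanol-only regions ranged from 3.67 to 40.4 with a median of 26.2, beside 19.8 outside, and 0 lay above 50. As with the constitutive regions, the fold ran lower in hubs: in dexamethasone replicates 1 to 3 the median fold of dexamethasone-only regions was 4.70, 4.48 and 4.52 in hubs and 5.67, 5.38 and 5.22 outside. For ethanol-only regions it was 4.11, 4.17 and 4.33 in hubs and 5.16, 5.39 and 5.33 outside. Dexamethasone-only regions were a median of 375 bp wide in hubs and ethanol-only regions 285 bp.

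The dexamethasone-only hub site of highest mean percentile was on chromosome 17 at 46032841 to 46033292. Its folds were 8.79, 6.71 and 7.96 and its percentiles 79.3, 66.6 and 79.8, and it lay in a hub of 8 regions called in all 6 libraries among 13. The nearest of these, 6.53 kb away at 46026080 to 46026996, had a mean percentile of 64.5 over the 6 lists. A site on chromosome 12 at 6485110 to 6485751 had folds of 5.96, 7.01 and 6.47, but an ethanol peak lay 0.062 kb from its edge. On chromosome 6, the site at 33713894 to 33714436 (folds of 7.23, 6.64 and 6.98) lay 1.80 kb from a constitutive region at 33712206 to 33712524. That neighbour had folds of 4.02, 5.86 and 6.33 in the dexamethasone lists and 7.83, 7.27 and 9.63 in the ethanol lists. On chromosome 14, a site 739 bp wide at 50386568 to 50387306 had folds of 7.87, 9.19 and 6.65, and its hub held 8 constitutive regions among 10. It was 7.65 kb from any ethanol peak.

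Next in rank was a site on chromosome 19, from 12861005 to 12861545, with a mean fold of 6.72 ± 0.77 (SD, n = 3). It was followed by positions 1634246 to 1634600 of chromosome 17, with 6.25 ± 0.56 (SD, n = 3). The site at 8249952 to 8250396 on chromosome 1, given above, was the last of the 7 above percentile 50, with a mean of 50.9. Another on chromosome 1, at 155011042 to 155011445, had folds of 6.41, 6.72 and 6.58 and percentiles of 47.9, 48.7 and 48.9. On chromosome 6, positions 12354791 to 12355116 had the highest mean fold of the 12 leading sites (8.76 ± 1.67, SD, n = 3) with percentiles of 56.9, 31.9 and 56.5. The last sites of the 12 were positions 67240630 to 67241185 of chromosome 16, with a mean fold of 5.06 ± 0.35, and positions 8006900 to 8007202 of chromosome 17, with 6.17 ± 0.75 (SD, n = 3 each). The latter sat in a hub with 14 constitutive regions among 24, the densest of the 12.

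The leading ethanol-only sites in hubs were lower in rank. The first, on chromosome 1 at 999547 to 999892, had folds of 3.72, 4.17 and 5.66 and percentiles of 26.4, 35.9 and 59.0, with a dexamethasone peak 0.049 kb away. The second, on chromosome 9 at 139470736 to 139471046, had percentiles of 13.99, 42.5 and 63.2. Both ranked differently from library to library. On chromosome 12, positions 49457750 to 49458005 had folds of 4.12, 4.79 and 4.63, and on chromosome 19, positions 17428271 to 17428492 had 8, 6.28 and 6.80. The site at 156010512 to 156010827 on chromosome 1 lay 11.9 kb from any dexamethasone peak, the farthest of the 6. The last, at 30075286 to 30075764 on chromosome 16 (3.68 ± 0.16-fold, SD, n = 3), was 1.23 kb from a constitutive region with a mean percentile of 89.9.

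Most treatment-only sites in hubs lay more than 1 kb from the nearest constitutive region. Overlapping peaks were joined, so a treatment-only site cannot overlap a constitutive region. No distances of other variable regions are given beside these, so they are a description. The nearest region called in all 6 libraries lay 0.404 to 21.2 kb from a dexamethasone-only site in a hub, centre to centre (median 4.06 kb), and within 1 kb for 11 of 78. For ethanol-only sites the median was 3.39 kb and 6 of 29 were within 1 kb. The distance to the nearest peak of the other treatment had a median of 2.42 kb for dexamethasone-only and 2.36 kb for ethanol-only sites. It was 0.1 kb or less for 4 and 2 of them. These sites depend on how peaks are joined, as do sites close to any other region. With merging across 100 bp, hubs held 71 dexamethasone-only and 25 ethanol-only regions, and there were 540 hubs.

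Over whole hubs, few differed by treatment. In 21 hubs (3.64%) every dexamethasone library called more regions than every ethanol library, beside 2.63% of the 7705 bins with a mean of at least 3 called regions. In 11 hubs (1.91%) every ethanol library called more, beside 2.15%. Both shares were near their background. A limma fit of the log2 number of regions called (plus 1) across those 7705 bins gave an adjusted p below 0.05 (Benjamini-Hochberg) for 4 of the 577 hubs (0.693%), 3 higher and 1 lower with dexamethasone, beside 0.896% of all bins. The highest ranked was the hub on chromosome 17 at 46900001 to 47000000, where 1 of the 2 dexamethasone-only regions lay 0.069 kb from an ethanol peak. This hub had a log2 difference of 0.29 (limma adjusted p = 0.00147). The others were on chromosome 10 at 99300001 to 99400000 (10 regions in each dexamethasone and 9 in each ethanol library), chromosome 12 at 48200001 to 48300000 (9 against 8) and chromosome 16 at 30000001 to 30100000 (11 against 13). All 4 had the same number in each library of a treatment, so their own spread was 0, and the fit can call such bins on a difference of 1 region. With each bin's variance held at or above the mean over bins, 0 hubs passed the adjusted threshold, beside 0.286% of all bins. At an unadjusted p below 0.05 it had 6 of the 577 hubs and 426 of the 7705 bins, against 36 and 478 with limma. The floor is 1 value for all bins, and 1 region is a smaller log2 step where many are called. It thus weighs more on hubs, and its 0 does not show that no hub changed.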

How the data were processed

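The 6 lists are peak calls in hg19 coordinates, 1 per library. MACS2 2.1.0, bedtools, Bowtie and CASAVA 1.3 are named in the submitters' processing notes; their settings are not given in the sources used here. In the narrowPeak layout the authors deposited, each peak has a ratio (fold enrichment), a −log10 p-value, a −log10 q and a summit offset. The deposited score follows the −log10 q and was not used. Peaks were numbered within each list, so they were called per library as far as the files show.

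Regions, hubs and counts were computed with Python 3.11.15 and pandas 2.3.3, and bins were fitted with limma 3.58.1. The scripts were tested on simulated data, where the limma fit made false calls, and the spread of those bins was not recorded. The variance floor was added after that test and after seeing that limma called bins with equal numbers within a treatment. The floored fit takes its p-values from a normal distribution, unlike limma. Members, lists and rules were chosen with earlier results of these data known. The comparison of folds and that of call rates in hubs minus outside were added after seeing the data. Named were the 12 densest hubs, hubs with at least 2 treatment-only regions of a kind or with both kinds, and the 12 dexamethasone-only and 6 ethanol-only hub regions of highest mean percentile. Planned gene, marker, motif and sequence descriptions need hg19 annotation or sequence, which was not used here. No 2 lists were alike: any pair shared at most 76.0% of the regions called in either. Folds inside and outside hubs were compared only within a list. Those of single sites and their neighbours are given list by list or as a mean over 3 lists, and their differences between lists were not tested.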

Additional observations from a re-analysis of the deposited data

How the results depend on the processing

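The alternatives were other hub limits, shifted bins, stricter peaks (−log10 q of at least 5), lists of one length, merging across 100 bp, a cover of 50%, no bin filter beyond 1 called region and a pseudocount of 0.5 (limma called 4 hub bins with either), leaving out each library, a replicate block and, chosen after seeing the data, leaving out both libraries numbered 3 and flooring the bin variance. With hubs of at least 6 there were 1480 hubs, 168 with a dexamethasone-only and 69 with an ethanol-only region (191 and 70 regions), and 14 hub bins called by limma. With at least 10 there were 216 hubs, 18 and 11 with such regions (20 and 11 regions), and 0 bins called. There the dexamethasone-only share in hubs minus outside was −0.044 instead of 1.14 points, and the call rate of variable hub regions differed by −1.28 points (exact permutation p = 0.9); the cause was not tested. With lists of one length the ethanol-only share in hubs minus outside was 0.0078 points instead of −0.10. With a cover of 50%, limma called 2 hub bins, and with the variance floored 0.

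Leaving out 1 library loosens the rules by construction. Hubs then numbered 606 to 649. Dexamethasone-only hub regions were 102 to 161 (84 to 132 hubs), the most without dexamethasone replicate 3, and ethanol-only ones 53 to 73 (49 to 68 hubs). Their shares in hubs minus outside were 0.71 to 2.14 points and −0.85 to 0.44 points. The treatment difference in call rate was −2.31 to 6.95 points in hubs, and −1.60 to 8.31 points for hubs minus outside. Limma called 7 to 15 hub bins. Percentile, width and fold in hubs minus outside were 5.04 to 5.64 points, 16.6 to 18.4 bp and −1.07 to −1.01, with an exact p of 0.0625, the smallest that 5 libraries allow. Without both libraries numbered 3, hubs held 234 and 111 treatment-only regions (183 and 104 hubs), with shares minus outside of 2.72 and −1.06 points. Limma then called 31 hub bins, the call rate outside hubs differed by 0.55 points instead of −1.92, and percentile, width and fold differed by 5.64 points, 17 bp and −1.07 (exact p = 0.125, the smallest for 4 libraries).

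Equal numbers did not meet the limit set for pairing: the calls of equally numbered libraries correlated at 0.10, 0.047 and 0.088 after removing group means, with 0.10 needed in each, although each library correlated best with its own number. Under the replicate block, whose rule is looser, hubs held 252 dexamethasone-only and 217 ethanol-only regions (192 and 181 hubs), and limma called 0 hub bins.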
